A study of Mus musculus with 2 samples.

Results

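Erg, Fli1, Ets1, Ets2, Elk3, Etv6 and Elf1 encode ETS transcription factors, and Tal1, Lyl1 and Lmo2 encode proteins of the TAL1 complex. These 10 genes were taken by symbol, as a list, from the 21938 protein-coding genes of the GENCODE M21 annotation of the mouse genome (mm10). The rule for their choice uses no measured value. DNase-seq, in which DNase I cuts open chromatin more readily than packed chromatin, had been run on lung tissue of male mice aged 14 days of the hybrid strain B6CASTF1/J. Both libraries belong to 1 group with no treatment, so the study holds no contrast between conditions. The labels give replicate 2 as tissue of 3 males and name no pool for replicate 1. They list a single donor record for both libraries, and it is not known if the same animals entered both. Each library came with a list of peaks, which are accessible sites with a score, and a list of footprints, which are short stretches inside accessible DNA protected from cutting.

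ETS factors share a DNA-binding domain that recognises a GGAA core, and ERG, FLI1 and ETS1 are known for driving endothelial genes, many of whose enhancers carry ETS motifs. TAL1 and LYL1 are related basic helix-loop-helix proteins that pair with E proteins on E-boxes, and LMO2 is an adaptor without DNA binding of its own that joins them to LDB1 and GATA factors. The same proteins act in blood stem cells, megakaryocytes and red cell precursors, and the lung, with its dense capillary bed, is rich in endothelium.

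All 10 genes had a promoter peak in both libraries, defined as a peak within 1 kb of any annotated transcript 5′ end. Of all protein-coding genes, 66.6% had one in replicate 1, 64.1% in replicate 2 and 63.6% in both. An open promoter was therefore the usual state of a gene in these libraries, and for 10 of 10 genes the exact 95% binomial interval reached down to 69.2%. Peak scores are the authors' own, on a scale that the files do not state, so each peak is given below by its percentile, the share of peaks in its library with a score no higher than its own. By this measure the strongest promoter peaks of most of these genes ranked below that of the median open gene. The median over the 10 genes of the strongest promoter peak lay at percentile 76.7 in replicate 1 and 79.1 in replicate 2, whereas the median over all genes with a promoter peak was 89.9 and 89.7. Only Ets1, Elf1 and Ets2 reached the top decile in both libraries, 3 of 10 genes against 49.7% and 49.1% of all genes with a promoter peak. In whole tissue, fewer cells with an open site and less opening per cell cannot be told apart.

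Ordered by the mean of both libraries, the strongest promoter peak was at percentile 98.2 ± 0.279 (SD, n = 2 here and below) in Ets1, 96.0 ± 2.15 in Elf1, 91.9 ± 2.61 in Ets2 and 85.6 ± 0.805 in Lyl1. It was at 81.9 ± 3.17 in Etv6, 71.7 ± 2.96 in Elk3, 69.8 ± 2.86 in Tal1, 68.5 ± 7.92 in Fli1, 53.8 ± 2.71 in Lmo2 and 27.7 ± 5.63 in Erg. Among neighbours in this order, the values of both libraries overlapped between Elk3 and Tal1 and between Tal1 and Fli1, so these 3 genes could not be ordered, and they did not overlap in the other pairs. With 2 libraries and 1 group, no test was made of these differences.

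**Figure D1:**
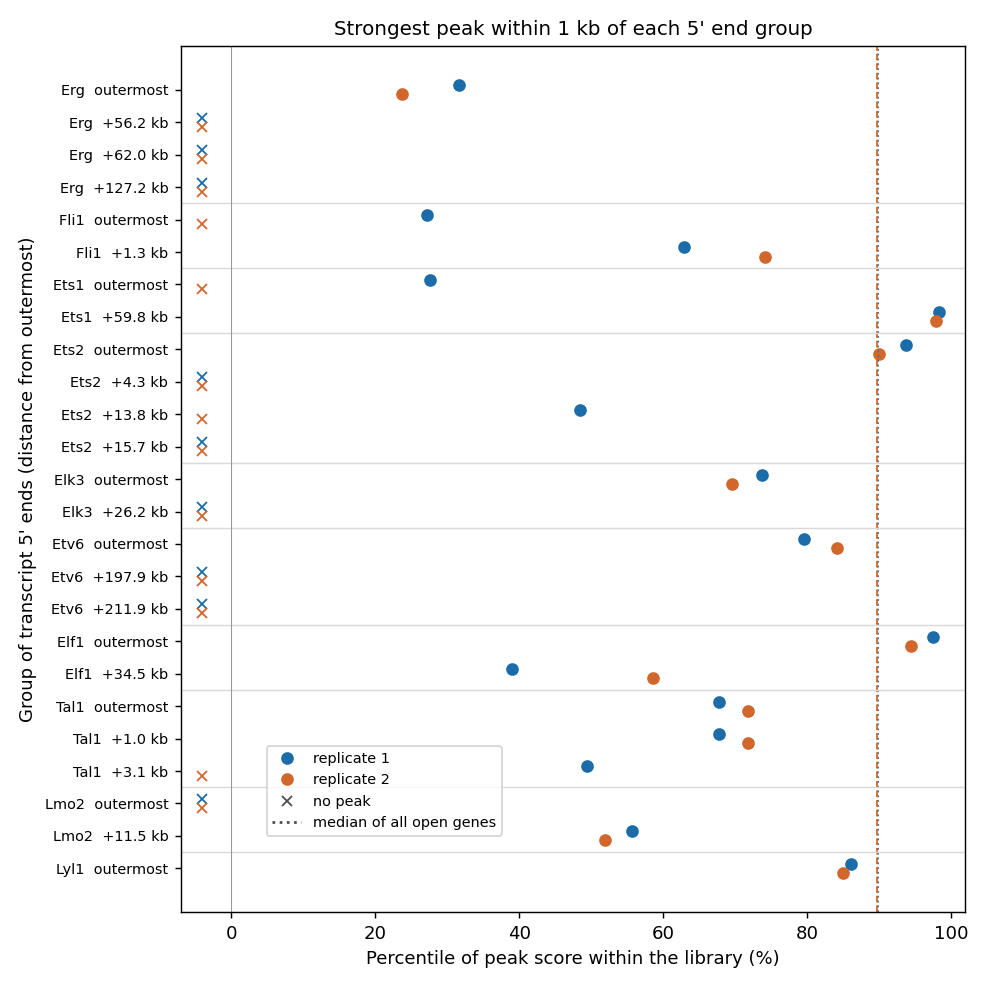
Strongest peak within 1 kb of each group of annotated 5′ ends of the 10 genes, as its percentile of peak score within the library (x axis, %), with replicate 1 in blue, replicate 2 in orange and crosses at the left for no peak. Vertical lines give the median over all genes with a promoter peak, 89.9 and 89.7, and only points of Ets1, Elf1 and Ets2 lie to the right of them, while Erg lies far to the left.

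Ets1, a factor of endothelial and lymphoid cells, had the strongest promoter of the 10, and its peak lay at an inner start. This start is 59801 bp downstream of the outermost 5′ end (distances are along the gene, and negative ones are upstream). The peak, chr9:32695861-32696080, was at percentile 98.4 in replicate 1 (rank 1538 of 94786) and 98.0 in replicate 2 (rank 1562 of 77403), with 5 footprints in each. At the outermost start, replicate 1 had a weak peak at percentile 27.6 and replicate 2 had none, with no base within 1 kb at a false discovery rate (FDR) of 0.05 or below in the authors' file. The accessible start of Ets1 in both libraries was therefore that of the shorter transcripts. The 161 bases of the peak outside annotated exons of Ets1 are shown because they hold the longest protected run among the promoters printed. Sequences are reference sequence (RefSeq, GRCm38), 5′ to 3′ along the gene, and capitals mark bases inside footprints of both libraries.
Ets1 inner promoter, chr9:32695861-32696021, plus strand: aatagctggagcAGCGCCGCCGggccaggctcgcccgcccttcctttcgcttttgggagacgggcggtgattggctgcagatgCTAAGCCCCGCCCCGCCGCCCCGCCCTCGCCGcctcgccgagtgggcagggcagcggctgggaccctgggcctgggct
Most of the capitals fall in a run of C and G a little upstream of the exon.

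Elf1, an ETS factor of haematopoietic and endothelial cells, had its strongest peak at the outermost start, chr14:79481001-79481200. It was at percentile 97.5 in replicate 1 and 94.5 in replicate 2. The same peak lies within 1 kb of a 5′ end of Wbp4, which is transcribed in the opposite direction, so its score cannot be given to either gene alone. A second Elf1 start 34480 bp downstream, far from Wbp4, had 1 peak in each library, at percentiles 39.0 and 58.6.

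Ets2, which acts downstream of growth factor signalling, had 3 peaks at its outermost start in replicate 1 and 2 in replicate 2, the strongest at percentiles 93.7 and 90.1, which were different peaks of the same start. Of its 3 inner starts, only the one at 13779 bp had a peak, in replicate 1 alone, at percentile 48.5.

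Etv6, a repressor needed for yolk sac vessels and blood stem cells, was open at its outermost start. The strongest peak there was at percentile 79.6 in replicate 1 and 84.1 in replicate 2. At its inner starts, 197900 and 211865 bp downstream, neither library had a peak in the smaller or the larger peak file, nor a base at an FDR of 0.05. Accessibility at Etv6 starts was thus confined, in both peak files of both libraries, to the outermost one.

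Elk3, a ternary complex factor found in endothelium, had 3 peaks at its outermost start in replicate 1 and 1 in replicate 2, the strongest at percentiles 73.8 and 69.6. Its start at 26160 bp had no peak and no base at an FDR of 0.05 in either library.

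Fli1 was open mainly at an inner start 1266 bp from the outermost. There, replicate 1 had 5 peaks and replicate 2 had 1, and the strongest, chr9:32541561-32541820, was at percentile 62.9 in replicate 1 and 74.1 in replicate 2. The outermost start had a peak only in replicate 1, at percentile 27.2. The difference between libraries also shows in the FDR files, where 1839 bases within 1 kb of the inner start reached 0.05 in replicate 1 and 455 in replicate 2. The Fli1 promoter was the only one of the 10 whose strongest peak held both an AGATAA and an E-box and GATA composite outside exons, and its 225 non-exonic bases are therefore shown.
Fli1 promoter, chr9:32541596-32541820, minus strand: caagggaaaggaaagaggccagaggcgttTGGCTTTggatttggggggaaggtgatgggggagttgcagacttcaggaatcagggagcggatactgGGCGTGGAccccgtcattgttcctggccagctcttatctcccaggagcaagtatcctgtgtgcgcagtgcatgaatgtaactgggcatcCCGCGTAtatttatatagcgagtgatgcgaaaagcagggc
On the printed strand the AGATAA reads ttatct, and it lay in a footprint of replicate 1 only.

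Erg had the weakest promoter of the 10. Its 1 promoter peak was at percentile 31.6 in replicate 1 (rank 64798) and 23.7 in replicate 2 (rank 59083), with 3 footprints and 1 footprint. It lay in an intron, centred 0.88 kb downstream of the outermost start in replicate 1 and 0.92 kb in replicate 2. The peak did not cover the start itself. The 3 inner start groups, at 56228, 61990 and 127245 bp, had no peak in either library. Within 1 kb of the first and the second of these, neither library had a base at an FDR of 0.05, and at the innermost one replicate 2 had 241 such bases and 1 peak in its larger file. ERG is a master factor of mature endothelium, and its promoter peak is printed as the low end of the range.
Erg promoter, chr16:95585565-95585860, minus strand: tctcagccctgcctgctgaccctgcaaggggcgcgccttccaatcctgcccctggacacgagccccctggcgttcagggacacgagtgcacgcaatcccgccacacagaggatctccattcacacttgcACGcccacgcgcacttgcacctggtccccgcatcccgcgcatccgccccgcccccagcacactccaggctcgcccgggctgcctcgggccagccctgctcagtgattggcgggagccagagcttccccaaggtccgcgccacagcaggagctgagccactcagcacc
Only 3 of its 296 bases were in footprints of both libraries, against 63 of 220 in the whole Ets1 peak.

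Of the TAL1 complex genes, Lyl1, a paralogue of Tal1, had the strongest promoter peak. Its 1 promoter peak, chr8:84701561-84701800, was at percentile 86.1 in replicate 1 and 84.99 in replicate 2, with 3 and 5 footprints. The peak lies wholly in annotated exon sequence, and it held an AGATAA and an E-box and GATA composite, both inside footprints of both libraries. Only the 30 bases around each are shown, minus strand, and here the capitals mark the match.
Lyl1 AGATAA, chr8:84701672-84701677: ctgggcctgtgcAGATAAgggtctggctgc
Lyl1 composite, chr8:84701644-84701659: tggctgcCTGGCCGCGGCTGATAagaagca
The composite was searched on both strands as CTG and GATA with 9 free bases between them, a spacing known for TAL1 complexes with GATA factors. It was in 0.674% of all promoter peaks of replicate 1 and 0.702% of replicate 2, and among the promoter peaks of the 10 genes in Fli1 and Lyl1, 2 of 30 peaks (6.67%) and 2 of 16 (12.5%). The Fli1 composite lay in no footprint of either library. The exact 95% intervals ran from 0.818% to 22.1% and from 1.55% to 38.3%. The shares of all promoter peaks lay just below both intervals, which rest on the same 2 genes in each library.

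Tal1, the helix-loop-helix factor required for blood and for vessel remodelling, had its strongest promoter peak, chr4:115056841-115057120, between its first and second start. It was at percentile 67.8 in replicate 1 and 71.8 in replicate 2. A start at 3082 bp had 2 peaks in replicate 1, the stronger at percentile 49.5, and none in replicate 2. Lmo2 had no peak and no base at an FDR of 0.05 at its outermost start in either library. At its inner start, 11542 bp downstream, it had 3 peaks in replicate 1 and 2 in replicate 2, the strongest at percentiles 55.7 and 51.9. So Ets1 and Lmo2 had a shared peak only at an inner start, as did Fli1, and 7 of the 10 genes had one in both libraries within 1 kb of the outermost start.

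Promoter peaks of the 10 genes held 83 footprints in replicate 1 and 65 in replicate 2, in 30 and 16 peaks. Per gene the median was 8 and 6.5, beside 5 and 5 over all genes with a promoter peak. Fli1 had 14 footprints in 5 peaks in replicate 1 and 6 in 1 peak in replicate 2. In replicate 1, a Fli1 peak with 2 footprints lay wholly inside another with 4. Those 2 were counted for both peaks, in the 14 and in the 83. Tal1 had 10 and 4, Elk3 had 8 and 2, and Elf1 had 11 and 13. All 16 promoter peaks of replicate 2 overlapped a peak of replicate 1.

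Beyond their promoters, within the gene body or 50 kb of either end of it there were 148 other peaks in replicate 1 and 116 in replicate 2, with peaks counted for both Fli1 and Ets1 taken once. Per gene the median was 15 in replicate 1 and 10.5 in replicate 2, against 7 and 6 over all protein-coding genes. Because several of these genes are long, the density is the closer comparison, and it was 7.24 and 5.08 peaks per 100 kb against 5.27 and 4.29. Of the lists of like genes, 2 were denser, with medians of 7.84 and 6.46 in the other ETS genes and 7.63 and 7.12 in the endothelial markers. The partners of TAL1, LYL1 and LMO2 were less dense, at 6.58 and 4.65. Every marker list given below also lay above the medians of all genes, and the erythroid one was the densest list, at 9.63 and 7.87. A density above that of all genes was thus not particular to the 10 genes. Etv6 (5.08 and 4.19) and Lmo2 (4.04 and 3.23) lay below the medians of all genes in both libraries. Of the other peaks, 105 in each library had a partner, an overlap of at least 1 bp with a peak of the other one, which is 70.9% of those of replicate 1 (exact 95% interval 62.9% to 78.1%) and 90.5% of those of replicate 2 (83.7% to 95.2%). Over all peaks the shares were 73.6% and 89.8%, inside both intervals.

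**Figure D2:**
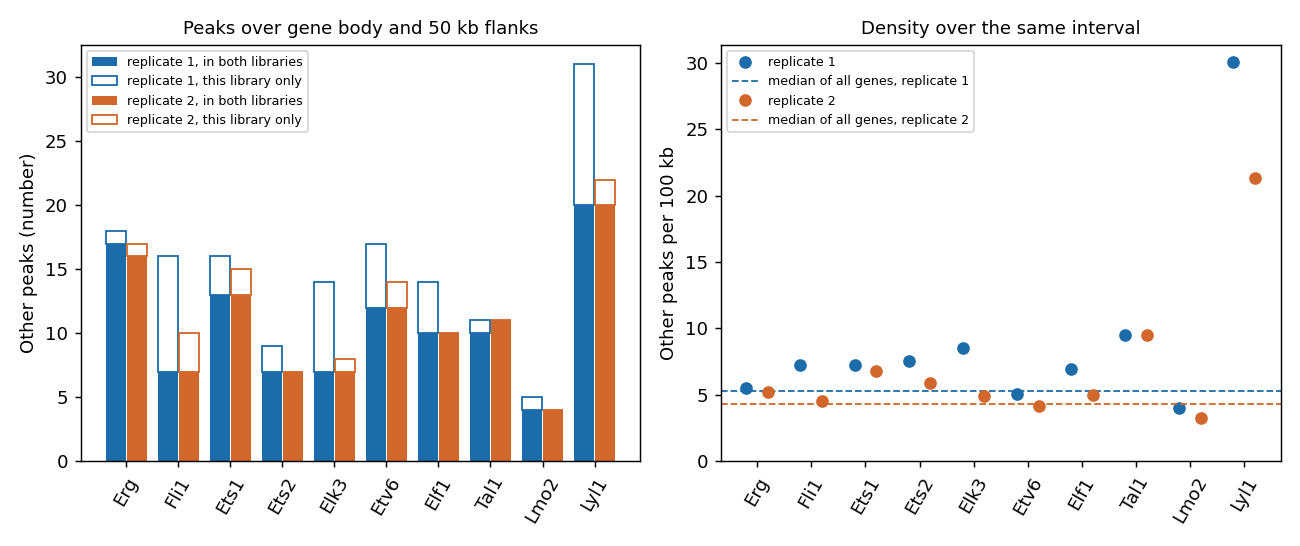
Left, number of other peaks in each gene body and the 50 kb flanking it (y axis), in replicate 1 (blue) and replicate 2 (orange), with the part that had a partner in the other library filled. Right, the same counts per 100 kb with dashed lines at the medians of all genes, 5.27 and 4.29, where Lyl1 stands at 30.02 and 21.3 and Etv6 and Lmo2 lie under the lines.

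Erg, whose promoter was the weakest, had 18 other peaks in replicate 1 and 17 in replicate 2, and 17 and 16 of them were shared. Its intron peaks fell into 2 clusters. In both libraries 1 cluster lay at 13.2 to 15.8 kb and the other from 122.6 to 213.5 kb, with 1 further peak of replicate 1 at 119.8 kb and none of either library between 15.8 kb and that one. Its strongest shared site by the mean of both libraries lay past the gene's 3′ end at 244.9 kb, chr16:95341601-95341800, at percentiles 89.4 and 88.2. That site and 3 more shared peaks beside it lay nearest to the start of Kcnj15, so the assignment to Erg rests on distance alone. A site upstream of Erg at -18.9 kb, with Erg as its nearest start, was at percentile 91.1 in replicate 1 and 77.4 in replicate 2. No peak inside the gene body passed percentile 72.4, so the strongest sites of the Erg interval flanked the gene.

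Etv6 showed another arrangement, with 16 of its 17 other peaks inside the gene body in replicate 1 and 14 of 14 in replicate 2. None passed percentile 68.2. Its highest shared one, in an intron at 116.3 kb, was at percentile 57.9 in replicate 1 and 68.2 in replicate 2. Elk3 had 14 and 8 other peaks, and among them the strongest intron site of the 10 genes, chr10:93291981-93292120 at 19.1 kb. It was at percentile 92.9 in replicate 1 and 89.2 in replicate 2, above the Elk3 promoter in both. Ets2 had 9 and 7 other peaks, and its highest shared one, at 26.9 kb and past the 3′ end, was at percentiles 72.1 and 81.2.

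**Figure D3:**
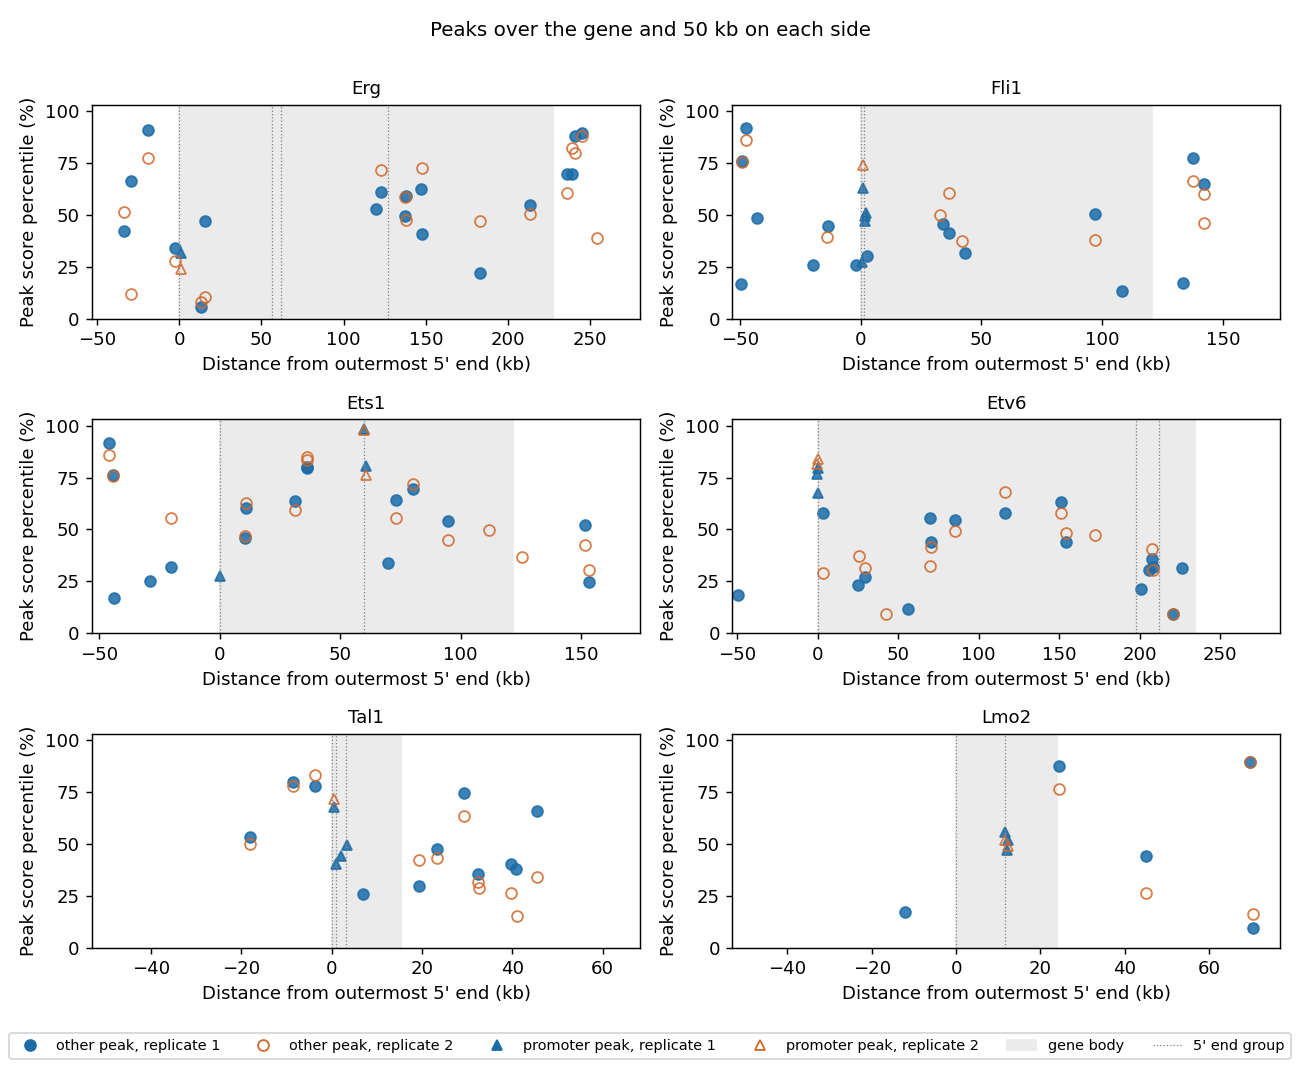
Peaks of Erg, Fli1, Ets1, Etv6, Tal1 and Lmo2, by distance of the peak centre from the outermost 5′ end along the gene (x axis, kb) and percentile of peak score (y axis, %), with circles for other peaks, triangles for promoter peaks, filled blue for replicate 1 and open orange for replicate 2. The gene body is shaded and dotted lines mark 5′ end groups, and the promoter of Ets1 stands at 98.4 and 98.0 while that of Erg lies under most of the Erg peaks.

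Fli1 and Ets1 are neighbours on chromosome 9, transcribed away from each other, and their intervals met in the stretch between them. The strongest shared site of both genes was the same peak, chr9:32590021-32590200, at percentile 91.8 in replicate 1 and 86.0 in replicate 2. It lay at -47.2 kb from the outermost end of Fli1 and -46.1 kb from that of Ets1, and held 5 and 4 footprints. In replicate 1, 3 peaks were counted for both genes, and in replicate 2 this held for 2. With these included, Ets1 had 16 and 15 other peaks, of which 13 were shared in each library, and Fli1 had 16 and 10 of which 7 were shared. The shared site between them is printed on the plus strand, with capitals again for footprints of both libraries.
Site between Fli1 and Ets1, chr9:32590021-32590200, plus strand: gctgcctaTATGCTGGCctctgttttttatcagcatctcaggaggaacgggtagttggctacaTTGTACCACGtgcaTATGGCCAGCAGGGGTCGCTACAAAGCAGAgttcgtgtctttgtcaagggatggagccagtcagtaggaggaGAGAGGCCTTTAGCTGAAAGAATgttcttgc

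Tal1 had 11 other peaks in each library, of which 10 and 11 were shared. Its strongest shared one, chr4:115052681-115052960 at -3.61 kb, was at percentile 78.1 in replicate 1 and 83.0 in replicate 2 and held 4 and 3 footprints, and it stood above the Tal1 promoter in both. Nearly as strong was a peak at -8.49 kb, at percentiles 80.1 and 78.0. Downstream of Tal1, 7 and 8 peaks ran into the neighbouring gene Pdzk1ip1, which held the nearest start of each of them.

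Lmo2 was the sparsest of the 10, with 5 other peaks in replicate 1 and 4 in replicate 2. Its highest shared one, at 69.8 kb, lay at the starts of 4931422A03Rik and Fbxo3. The highest one away from other gene starts, chr2:103982341-103982480 at 24.4 kb, just past the 3′ end of Lmo2, was at percentile 87.7 in replicate 1 and 76.2 in replicate 2. Elf1 likewise had its highest shared other peak, at percentiles 95.3 and 95.1, at the start of another gene, Sugt1. Its highest away from other starts was an intron site at 68.2 kb, at percentiles 62.7 and 61.4.

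Lyl1, the shortest of the 10 genes, had the densest surroundings, with 31 other peaks in replicate 1 and 22 in replicate 2. None of them had Lyl1 as its nearest start. Of these peaks, 16 and 11 lay within 1 kb of a start of another gene, among them Ier2, Nacc1, Trmt1 and Nfix, and the strongest shared one, at percentiles 97.7 and 98.1, lay within 1 kb of a start of Gm26664. The peak density around Lyl1 is thus a value of a gene-rich stretch, and its 30.02 and 21.3 peaks per 100 kb are not a value of the gene alone. Over all 10 genes, 30 of 148 other peaks in replicate 1 and 26 of 116 in replicate 2 were at starts of other genes, and 87 and 67 had one of the 10 genes as their nearest start.

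The other peaks carried footprints at the usual rate, 2.30 per peak in replicate 1 and 2.34 in replicate 2 against 2.41 and 2.36 over all peaks. By position, 63 and 46 were in introns, 43 and 35 upstream, 39 and 34 downstream, and 3 and 1 in exons. They were mostly of middling strength, with medians at percentiles 54.3 and 56.5. Of the 148 and 116, 11 and 7 were in the top decile of all peaks of their library, promoter peaks included. Taken gene by gene, the median percentile of the other peaks had a median of 49.0 and 53.2 over the 10 genes. Over all protein-coding genes it was 55.4 and 55.1. Across the 121 shared peaks of replicate 1 at these genes, promoters included, the percentile differed between libraries by a median of 4.93, against 6.42 over all 69768 shared peaks of that library.

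Enhancers described for Tal1, Erg and Fli1 in blood and endothelium are named by their distance in kb from a start of the gene. A peak within 2 kb of that distance from the outermost 5′ end was found in both libraries for Tal1 -4, Tal1 +19 and Tal1 +40, and in neither library for Erg +85 and Fli1 +12. How often other windows of this width hold a peak was not computed, and the Tal1 interval held 9.54 other peaks per 100 kb in each library. The count alone therefore does not set these places apart from their surroundings. At Tal1 -4, an enhancer with ETS sites described in endothelium and blood progenitors, this was the peak at -3.61 kb given above. At Tal1 +19, known as the stem cell enhancer and active in endothelium, the peak was weak, at percentile 29.9 in replicate 1 and 42.4 in replicate 2, with no footprint in replicate 1 and 3 in replicate 2. Tal1 +40, described as an erythroid enhancer, held 2 peaks in each library, the stronger at percentiles 40.5 and 26.3 and the weaker at 38.0 and 15.3. At the places of Erg +85 and Fli1 +12, neither library had a peak in its smaller or larger file, nor a base at an FDR of 0.05 within 2 kb. Those distances were published from a start that may differ from the outermost one used here, so the elements themselves may lie elsewhere. Of the sites with a peak, those of Tal1 -4 and Tal1 +19 are printed, with capitals for footprints of both libraries.
Tal1 -4, chr4:115052681-115052960, plus strand: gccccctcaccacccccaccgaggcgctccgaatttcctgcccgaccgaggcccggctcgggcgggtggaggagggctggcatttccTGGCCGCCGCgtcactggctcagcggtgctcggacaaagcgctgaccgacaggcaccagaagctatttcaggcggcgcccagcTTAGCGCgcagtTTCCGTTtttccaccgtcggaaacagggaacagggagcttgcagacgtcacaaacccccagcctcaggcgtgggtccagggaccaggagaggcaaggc
Tal1 +19, chr4:115075687-115075760, plus strand: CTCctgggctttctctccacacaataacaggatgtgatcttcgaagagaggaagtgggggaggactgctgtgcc
The Tal1 +19 peak of replicate 1 held 1 GGAAG, at position 115075736, which lay in a footprint of replicate 2 only. The Tal1 -4 peak held neither CNGGAAGT nor GGAAG, but it did hold the shorter GGAA core, which reads ttcc on the other strand, also within a stretch in footprints of both libraries.

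Letters of 3 kinds were searched on both strands in the centre base of each peak and 75 bases on either side: the ETS consensus CNGGAAGT, the E-box CAGNTG and the GATA sequence AGATAA. The ETS consensus was in 11 of 148 other peaks of replicate 1 (7.43%, exact 95% interval 3.77% to 12.9%) and 9 of 116 of replicate 2 (7.76%, 3.61% to 14.2%). All other peaks of the libraries, meaning promoter peaks of no gene, held it in 4.82% and 5.38%, inside both intervals. That set leaves out peaks at gene starts, whereas 30 and 26 of the other peaks of the 10 genes lay at starts of other genes. Without those the share was 7.63% (3.55% to 14.0%) and 7.78% (3.18% to 15.4%), and both intervals again held the share of all other peaks. None of the 30 and 16 promoter peaks of the 10 genes held it, beside 6.76% and 7.22% of all promoter peaks, and 0 of 30 and 0 of 16 allow shares up to 11.6% and 20.6%. Outside that central window, the strongest Elk3 promoter peak held 1 match, at chr10:93310962-93310969, in a footprint of replicate 1. The E-box was in 38.5% and 45.7% of the other peaks, beside 44.4% and 45.5%, and AGATAA in 5.41% and 7.76%, beside 5.34% and 5.70%. For none of these 3 did the other peaks of the 10 genes differ from all other peaks beyond the counting interval, with or without those at starts of other genes. The bare core GGAAG, searched after the data had been seen, was in 58.1% and 56.9% of the other peaks (49.7% to 66.2% and 47.4% to 66.1%). All other peaks held it in 49.3% and 50.3%, just outside the interval of replicate 1 and inside that of replicate 2. Without the peaks at starts of other genes it was in 56.8% and 57.8% (47.3% to 65.9% and 46.9% to 68.1%). Both of these intervals held the share of all other peaks. In promoter peaks it was in 21 of 30 (70.0%, 50.6% to 85.3%) and 10 of 16 (62.5%, 35.4% to 84.8%), beside 51.0% and 51.5% of all promoter peaks, inside both intervals.

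The ETS matches fell at 5 genes, Fli1, Ets1, Elk3, Etv6 and Lyl1. In 6 of 11 and 6 of 9 peaks they overlapped a footprint of the same library, and these peaks lay at the same places in both libraries. Without the peaks at starts of other genes this was 4 of 9 and 4 of 7. Among all other peaks with a match, which also leave out gene starts, it was 28.4% and 28.5%. No test was made of this difference, and the peaks are few. The Lyl1 match at -37.5 kb lay in the central window of its peak in replicate 1 only. The 7 matches that overlapped footprints of both libraries are shown with 30 bases of context on the strand of the match, and capitals mark the match.
Fli1 at 137.4 kb, chr9:32405509-32405516, minus strand: acatttgggatCTGGAAGTacatagcacca
Fli1 at 96.9 kb, chr9:32445954-32445961, minus strand: ataggcgatgtCAGGAAGTgctgtcaaatc
Ets1 at 80.0 kb, chr9:32716258-32716265, minus strand: gacaggaggaaCTGGAAGTctgccctgtat
Etv6 at 70.4 kb, chr6:134106057-134106064, plus strand: cttaagccatcCGGGAAGTgagggagtttc
Lyl1 at -41.4 kb, chr8:84660009-84660016, plus strand: tgactgcggcaCCGGAAGTcctggtatggg
Lyl1 at -37.5 kb, chr8:84664006-84664013, minus strand: ggctgcagtggCGGGAAGTctgcccgctgg
Lyl1 at -37.4 kb, chr8:84664080-84664087, minus strand: tatatgggcatCCGGAAGTggttcgcggcg
The first base after the opening C varies among them, and only 2 have the CCGGAAGT form, both near Lyl1 and nearest to Ier2. A match of these letters is a description of the sequence and not evidence of a bound factor.

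A pattern of the insulator protein CTCF (CC, 3 free bases, AG, 2 free bases, GGC) was searched on both strands after the strong sites had been seen. It was found, among others, in the Elk3 intron site, in the site past Lmo2, in the Erg sites at -18.9 and 240.5 kb and in strong sites around Lyl1. In the Elk3 and Lmo2 sites it lay inside footprints of both libraries, which is its usual state: of all other peaks with the pattern, 89.5% in replicate 1 and 85.3% in replicate 2 had it in a footprint. These 2 sites are printed with capitals for footprints of both libraries.
Elk3 intron site, chr10:93291981-93292120, minus strand: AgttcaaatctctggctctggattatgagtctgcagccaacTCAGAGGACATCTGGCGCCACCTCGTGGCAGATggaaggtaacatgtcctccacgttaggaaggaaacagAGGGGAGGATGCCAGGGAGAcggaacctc
Lmo2 downstream site, chr2:103982341-103982480, plus strand: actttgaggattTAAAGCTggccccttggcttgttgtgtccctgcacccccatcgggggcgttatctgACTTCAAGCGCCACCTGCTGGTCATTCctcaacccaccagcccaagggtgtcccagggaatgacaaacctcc
In the Elk3 site the match reads CCACGAGGTGGC on the plus strand at chr10:93292052-93292063, and in the Lmo2 site CCAGCAGGTGGC on the minus strand at chr2:103982418-103982429. The stronger Tal1 +40 peak held a match too, CCCAGAGGGGGC, as did the weaker one. The pattern was no more frequent at these genes than elsewhere, in 14.2% and 16.4% of their other peaks beside 19.8% and 19.8% of all other peaks. Without the peaks at starts of other genes, which the latter set leaves out, the shares were 16.1% and 18.9%. It was in none of their promoter peaks, beside 11.8% and 12.02%. The Lmo2 match covers a CAGGTG, which the E-box search also counts, so the E-box in that footprint and the CTCF pattern are the same bases.

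In the rest of the ETS family, promoter peaks were found in 16 of 19 genes in replicate 1 (84.2%) and 15 of 19 in replicate 2 (78.9%), shares within the counting interval of the 10 genes. Etv5, a target and effector of growth factor signalling in lung epithelium, was at percentiles 97.1 and 98.99, and Erf, a repressor, at 97.3 and 95.2. Fev, Spib and Spic had none in either library, and these are factors of serotonergic neurons, B cells and red pulp macrophages. Among partners of TAL1, LYL1 and LMO2, 11 of 12 were open in both libraries. Tcf3, which encodes the E proteins that pair with TAL1, was at percentiles 95.1 and 97.4, and Lmo4 at 93.9 and 95.05. The 1 partner without a promoter peak was Gata1, the GATA factor of red cells and megakaryocytes.

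Marker lists gave the state of the cell types in which these genes act. Of 18 endothelial markers 17 had a promoter peak in both libraries, with Vwf at percentiles 92.6 and 87.6 and Esam at 90.4 and 87.7, and Emcn had none. The median of their strongest promoter peaks, 79.9 and 80.0, was near that of the 10 genes, as were those of the other ETS genes (81.2 and 85.1) and the epithelial markers (70.5 and 77.2). Erythroid markers had one in 2 of 8, megakaryocyte markers in 2 of 6 and 1 of 6, and leukocyte markers in 4 of 10, and Gata1, Klf1, Ptprc and Csf1r had none in either library. Stromal markers were open in 5 of 6 and 4 of 6 and epithelial ones in 5 of 6 in both. Against 66.6% and 64.1% of all genes, the exact interval of the endothelial list, 72.7% to 99.9% in both libraries, lay above. That of the leukocyte list, 12.2% to 73.8% in both, held both shares. The erythroid interval, 3.19% to 65.1% in both, ended below the share of replicate 1 and held that of replicate 2. Megakaryocyte intervals ran from 4.33% to 77.7%, which held the share, and from 0.421% to 64.1%, which ended about at it. The intervals of the stromal and epithelial lists held the share of all genes. With 6 genes each, those lists are too short for an interval to lie above that share even with every gene open. The intervals therefore do not set the endothelial list apart from them. How much of the signal at the 10 genes came from each cell type was not tested.

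**Figure D4:**
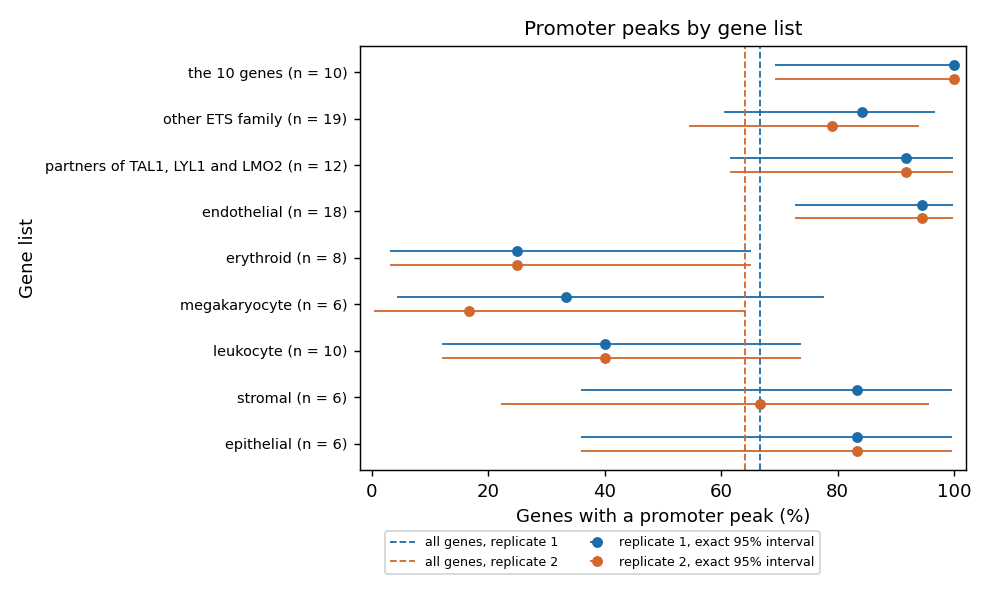
Share of genes with a promoter peak in each list (x axis, %), in replicate 1 (blue) and replicate 2 (orange), with exact 95% binomial intervals that cover the counting of genes only. Dashed lines give all protein-coding genes, 66.6% and 64.1%; the 10 genes stand at 100% and the endothelial list at 94.4%, while the erythroid list stands at 25.0% in both.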

How the data were processed

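The authors aligned reads to mm10 and called each library on its own, per the file listings. For aligner and callers, no name was found in the labels or listings. The peak lists that the authors deposited hold a signal value on an unstated scale, used only as a rank within its library, and the smaller of 2 lists per library was taken (94786 and 77403 peaks). The deposited FDR and footprint files hold p-value type numbers: runs of bases at 0.05 or below, and a constant 0.01 for each of 326313 and 252174 footprints. No read counts are given, so depth is unknown, intervals cover the counting of peaks or genes only, and an effect of aligning a hybrid strain to mm10 was not tested. Replicates may share animals.

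Transcript 5′ ends came from GENCODE M21. Promoter peaks lay within 1 kb of one, and other peaks in the gene body or its 50 kb flanks. In a library, 1.24% and 0.984% of peaks overlapped another peak of the same list, and each was counted. A footprint counted when wholly inside a peak. Shares have exact (Clopper-Pearson) 95% intervals. Scripts, checked on simulated data, used Python 3.11.15, pandas 2.3.3, scipy 1.17.1, pysam 0.24.0 and matplotlib 3.10.9. Named were all 10 genes, in each other list the 2 highest open in both libraries and the first 2 in alphabetical order open in neither, and for each gene the highest shared other peak. Spic, Klf1, Ptprc, Csf1r and the further peaks named were chosen after their values were seen. The genes, lists and listed enhancers were chosen with earlier results of these data known.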

Additional observations from a re-analysis of the deposited data

How the results depend on the processing

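No paired analysis was possible because the libraries form 1 group. All values are means of both libraries unless they are counts in both. The 10 genes with a promoter peak in both libraries became 9 with a 500 bp window or with the higher-scoring 50% of peaks (Erg lost its peak) and 7 with the outermost 5′ end alone; leaving out a library gave 10 each time. The median promoter percentile of 76.8 became 81.9 with a 500 bp window, the outermost 5′ end or the higher-scoring 50% of peaks, and 84.8 with the larger peak file, and was 76.7 to 79.1 when a library was left out. In the 3 settings that gave 81.9, no gene that kept a peak moved by more than its SD. The median there was over fewer genes, 9, 7 and 9 of the 10. The 105 shared other peaks became 42 without flanks, 158 with the larger file and 60 with the higher-scoring 50% of peaks. Each library by itself gave 116 to 148. The 74 footprints in promoter peaks became 43 with the outermost 5′ end, and 65 to 83 with a library left out. The ETS consensus share of 7.596% became 9.86% without flanks, 7.89% with flanks of 100 kb, 6.85% with the larger file, 7.36% with the higher-scoring 50% of peaks, 1.54% for CCGGAAGT alone, 11.1% over whole peaks and 57.5% for GGAAG, which was chosen after seeing the data, and was 7.43% to 7.76% with a library left out. The 3 listed enhancers with a peak became 1, Tal1 -4, with the higher-scoring 50% of peaks. With the larger file the promoter percentile moved by more than its SD in 9 of the 10 genes, in Erg from 27.7 to 53.1. The cause of these shifts was not tested beyond the smaller or larger sets of genes, peaks and letters that the settings themselves fix.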
